A study of Canis lupus familiaris with 28 samples.

Results

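The direct comparison of p190A knockdown with p190B knockdown in confluent cells rests on 4 of the 28 samples of the series. They are 2 libraries of cells with an shRNA against p190A (titles cA1 and cA2) and 2 of cells with an shRNA against p190B (titles cB1 and cB2), all confluent and all from experiment 1. The members were chosen by these labels and by no measured value. All 4 came from TR-T10, a line of dog cells whose introduced constructs are under the control of the tetracycline repressor TetR. The p190A shRNA line was selected in hygromycin and the p190B shRNA line in puromycin. Both lines were given doxycycline at 4 µg/ml for 3 days and were then replated for 3 to 5 days. Reads of polyA-selected RNA were counted per Ensembl dog transcript.

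The groups used for reference were wild-type cells, double knockdown cells with both shRNAs, and the same 4 kinds of cells at sub-confluent density, with 2 libraries in each of the 8 groups of experiment 1. Per the labels, the double knockdown line was made from the p190B shRNA line by adding the p190A shRNA. The labels do not say whether wild-type cells received doxycycline. Experiment 2, with 3 libraries each of confluent wild-type and double knockdown cells, served as a separate set of libraries. Each knockdown is 1 transduced line with its own drug selection, so an effect of the shRNA and a difference between the lines cannot be told apart.

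p190A (gene ARHGAP35) and p190B (gene ARHGAP5) are related GTPase-activating proteins that regulate the actin cytoskeleton. Actin tension feeds into the Hippo pathway, whose kinases keep the coactivator YAP1 out of the nucleus in crowded epithelial cells. The series title names contact inhibition and YAP1-mediated transcription as its subject. Comparing the single knockdowns with each other asks whether losing either protein gives the same transcript levels at confluence.

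The files carry transcript identifiers only. None of the 29884 identifiers (0) appears in the reference table, which lists 43286 dog genes, so no gene is named. For the same reason neither the knockdown of ARHGAP35 and ARHGAP5 nor the levels of epithelial markers could be checked. The sum of transcript counts was between 11696718 and 12770060 in the 4 libraries. The labels do not state that the replicates were separate cultures. The p-values therefore reflect only the spread between libraries of a group, estimated over all 8 groups of experiment 1, which may be technical. The median absolute difference between replicates was 0.160 on the log2 scale in confluent p190A cells and 0.177 in confluent p190B cells.

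The transcriptomes of the 2 single knockdowns differed at confluence. Of 12845 transcripts tested, 906 were higher with the p190A shRNA, which is 7.05% of those tested, and 1060 were higher with the p190B shRNA, which is 8.25% (edgeR quasi-likelihood test, adjusted p under 0.05). Most of the differences were small. The median difference was 1.61-fold for transcripts higher with the p190A shRNA and 1.79-fold for those higher with the p190B shRNA. Over all tested transcripts, 79.8% differed by less than 1.5-fold and the median log2 fold change (p190A minus p190B, the direction used throughout) was -0.0045.

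Large differences were more often towards the p190B shRNA. At least 2-fold apart were 248 transcripts higher with the p190A shRNA (1.93% of those tested) and 417 higher with the p190B shRNA (3.25%). At least 4-fold apart were 59 and 139, at least 8-fold apart 19 and 61, and at least 16-fold apart 9 and 28. The 2-fold split of 248 against 417 was 245 against 371 with DESeq2 and 259 against 412 with RLE size factors. Transcripts higher with the p190B shRNA also had lower levels. Their median, over the mean of the 16 libraries of experiment 1, was 32.7 CPM (transcript counts scaled to a common library total), against 56.5 CPM for transcripts higher with the p190A shRNA and 22.8 CPM for all tested.

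**Figure D1:**
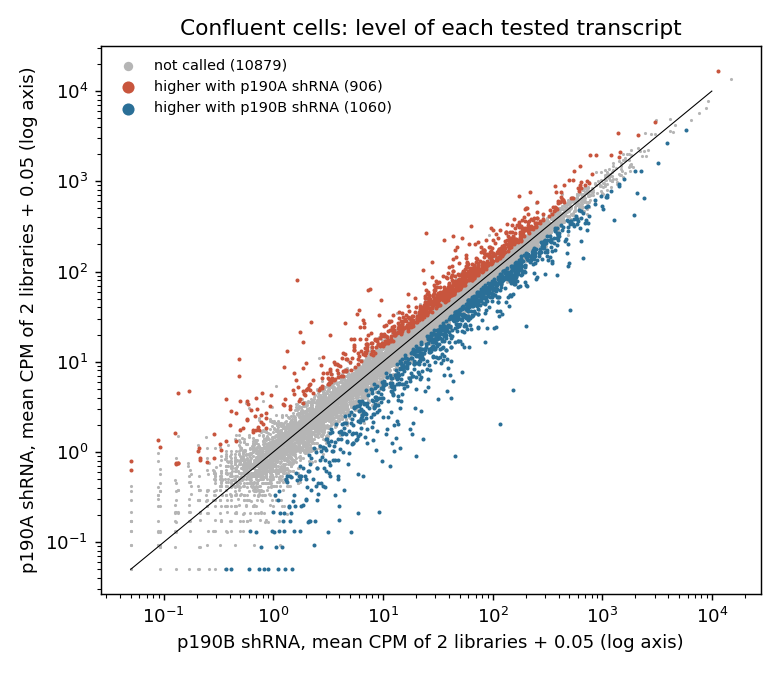
Mean level of each tested transcript in confluent p190A shRNA cells (vertical axis) against confluent p190B shRNA cells (horizontal axis), in CPM plus 0.05 on log axes, with 2 libraries in each mean and the line marking equal levels. Orange points are the 906 transcripts called higher with the p190A shRNA and blue points the 1060 called higher with the p190B shRNA; points far below the line outnumber those far above it.

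The excess of large differences towards the p190B shRNA lay among transcripts of low and middle level. Below 1 CPM, 19 transcripts were at least 2-fold higher with the p190A shRNA and 52 with the p190B shRNA. From 1 to 4 CPM the counts were 41 and 101, and from 4 to 16 CPM they were 66 and 130. From 16 to 64 CPM the counts were 49 and 77. Among transcripts from 64 to 256 CPM the order was the other way round, with 53 and 40, and above 256 CPM the counts were 20 and 17. The share of transcripts called in either direction rose with level, from 6.20% below 1 CPM to 23.7% above 256 CPM. The median absolute log2 fold change of those called was 2.93 in the lowest of these classes and 0.60 in the highest. How much of these trends comes from counting error at low levels was not tested.

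In reads, the called transcripts made up a modest part of each library. Transcripts higher with the p190A shRNA held 14.2% and 14.9% of transcript counts in the p190A libraries and 8.90% in each p190B library. In wild-type libraries they held 12.1% and 12.2%, and in double knockdown libraries 11.5% and 11.6%. Transcripts higher with the p190B shRNA held 13.4% and 13.8% in the p190B libraries and 7.93% and 8.17% in the p190A libraries. In wild-type libraries these held 9.997% and 10.6%, and in double knockdown libraries 8.99% and 9.45%. For both sets the wild-type share lay between those of the single knockdowns. The calls were chosen on the p190A and p190B libraries, so their shares there are a description.

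The count of calls depended on each of the 4 libraries. The 1966 calls became 992 and 958 without p190A replicates 1 and 2, and 1296 and 951 without p190B replicates 1 and 2, where the lone library was assumed to vary like the other groups.

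Called transcripts were eligible for naming when edgeR's average log2 CPM reached 3. That average is close to the log2 of the mean CPM over the 16 libraries of experiment 1. All 1966 called transcripts had groups that did not overlap, so this further condition removed none. Eligible were 795 transcripts higher with the p190A shRNA and 807 higher with the p190B shRNA. The 2 with the largest fold change in each direction are described. CPM values did not overlap between the 2 groups for 57.8% of all tested transcripts, so a lack of overlap alone is common with 2 libraries a side, and 15.3% of transcripts were called.

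Transcript ENSCAFT00000029232 was the first of those higher with the p190A shRNA. It stood at 73.7 and 85.4 CPM in the confluent p190A libraries and at 1.85 and 1.32 CPM in the confluent p190B libraries. Wild-type cells held 43.8 and 39.4 CPM and double knockdown cells 21.6 and 14.3 CPM. The p190A libraries were thus the highest of the 4 kinds of confluent cells and the p190B libraries the lowest, with no overlap between any of them. The log2 fold change between the single knockdowns was 5.65 (SE 0.59, edgeR adjusted p = 3.6e-05), and it was 5.42 to 5.93 when single libraries were left out.

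Transcript ENSCAFT00000026362 was at 5.51 and 3.44 CPM in the p190A libraries. It reached the level for naming through wild-type and sub-confluent p190A libraries. One p190B library held 2 reads of it (0.168 CPM) and the other 0. Wild-type cells were higher than either knockdown, at 18.2 and 15.0 CPM, and double knockdown cells were at 0.494 and 0.379 CPM. Both single knockdowns therefore lay below wild type, the p190B libraries farther. From 111 reads in the p190A and 2 in the p190B libraries, the ratio of levels was 55.9, with a 95% exact (Clopper-Pearson) interval of 15.1 to 467 that covers counting error only. The test gave an edgeR adjusted p = 6.1e-03. The fitted log2 fold change of 5.64 was 4.66 without p190B replicate 2, the library at 0. It was 8.93 without p190B replicate 1, where the p190B side is at 0 and the value depends on the prior count. The call was lost with limma-voom (adjusted p = 0.14) and without p190B replicate 2 (edgeR adjusted p = 0.073).

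Of those higher with the p190B shRNA, transcript ENSCAFT00000008568 had the largest fold change. The p190A libraries held 2.13 and 1.85 CPM and the p190B libraries 133.5 and 98.4 CPM. Wild-type cells were in between at 26.5 and 18.9 CPM, and double knockdown cells at 69.0 and 44.3 CPM. The single knockdowns lay on opposite sides of wild type, and the double knockdown lay between wild type and the p190B libraries. The log2 fold change was -5.86 (SE 0.59, edgeR adjusted p = 3.1e-05).

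Transcript ENSCAFT00000019396 was near the detection limit except in p190B shRNA cells, and it reached the level for naming only through them. It stood at 43.7 and 47.3 CPM in the p190B libraries and at 0.787 and 0.923 CPM, from 10 and 11 reads, in the p190A libraries. Wild-type cells held 0.182 and 0.305 CPM and double knockdown cells 0.823 and 0.379 CPM. The double knockdown line was derived from the p190B shRNA line, and its libraries lay within the range of the p190A and wild-type ones. The log2 fold change between the single knockdowns was -5.72 (SE 0.36, edgeR adjusted p = 6.7e-07).

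**Figure D2:**
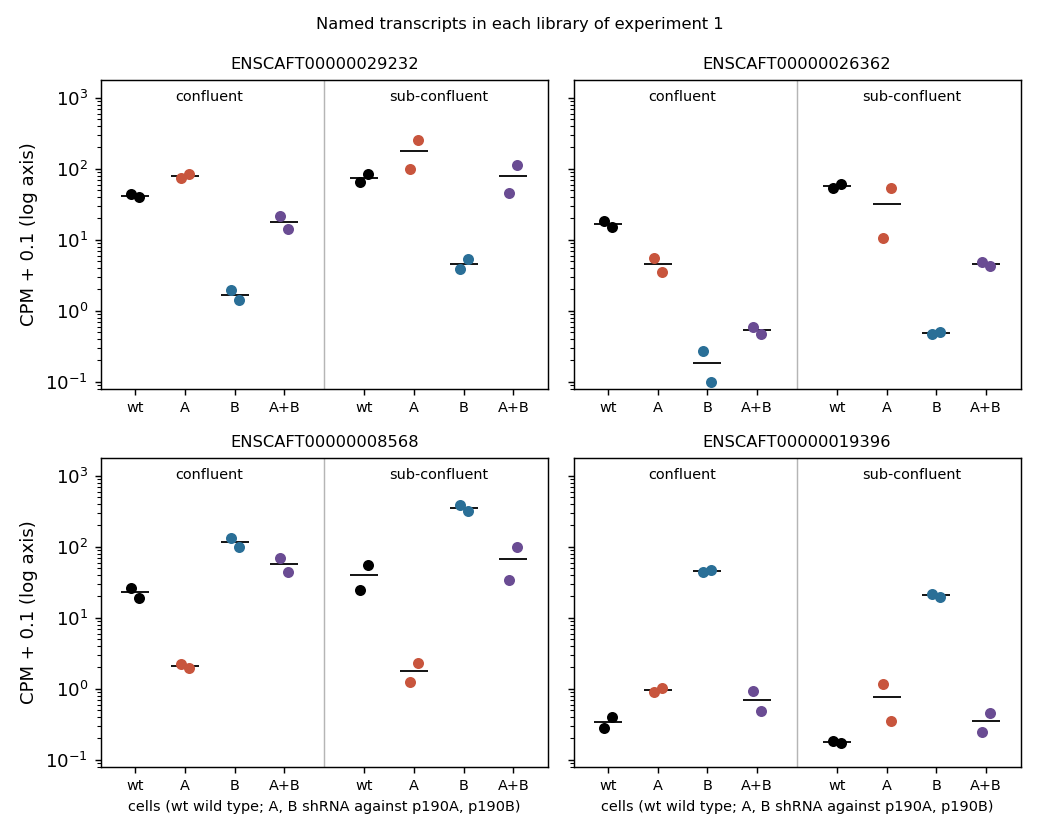
Level of the 4 named transcripts in every library of experiment 1, in CPM plus 0.1 on a log axis, by cell type (wt, wild type; A, p190A shRNA; B, p190B shRNA; A+B, double knockdown) and density; points are libraries and bars the mean of 2. In each panel the p190A and p190B libraries are far apart at both densities, and the double knockdown libraries of ENSCAFT00000019396 stay below 1 CPM while the p190B libraries reach 43.7 and 47.3 CPM at confluence.

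The same contrast was then made in sub-confluent cells, which share no library with the confluent comparison but are of the same lines. Both contrasts came from the same fit of all 16 libraries. Each transcript's estimated spread was therefore shared between them, and the calls at the 2 densities are not independent. There, 1416 transcripts were higher with the p190A shRNA (11% of those tested) and 1319 higher with the p190B shRNA (10.3%). Of the 906 transcripts higher with the p190A shRNA at confluence, 683 (75.4%) were called higher with it in sub-confluent cells and 0 lower. Of the 1060 higher with the p190B shRNA, 786 (74.2%) were called higher with it in sub-confluent cells, and 1 was called the other way round. The shared transcripts were 48.2% and 59.6% of the 2 sub-confluent lists.

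Sizes were also alike at the other density. For transcripts higher with the p190A shRNA at confluence, the sub-confluent log2 fold change was 0.66 at the median, with quartiles of 0.42 and 0.96. Those higher with the p190B shRNA had a median of -0.77, with quartiles of -1.25 and -0.46. For all tested transcripts the median was 0.02, with quartiles of -0.29 and 0.30. In the 4 pairs of a sub-confluent p190A with a sub-confluent p190B library, the median of the first list ran from 0.56 to 0.68 and that of the second from -0.83 to -0.61. Over the 12845 transcripts, whose values are not independent of each other, the fold changes at the 2 densities had a Pearson's r of 0.746 and a Spearman's rank correlation of 0.703, and 77.1% had the same sign.

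**Figure D3:**
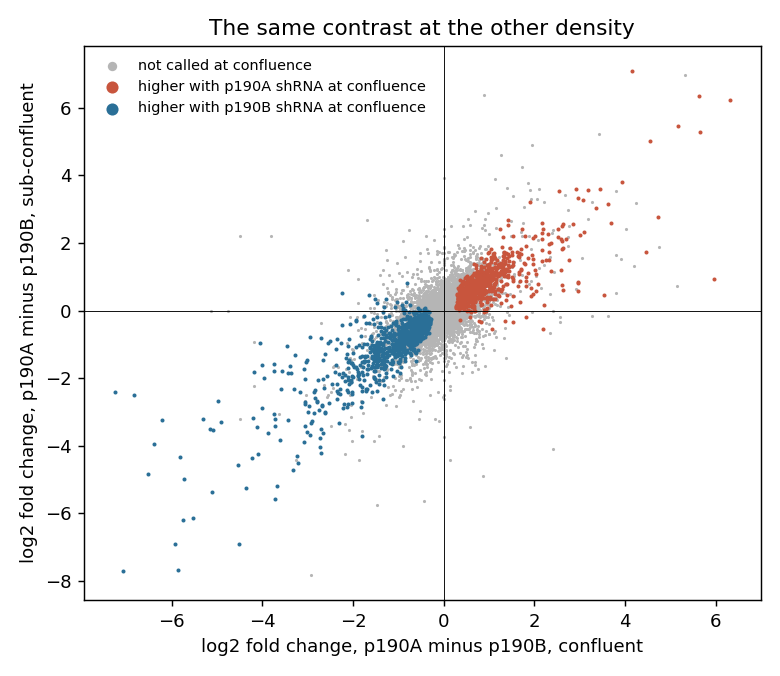
Log2 fold change (p190A minus p190B) of each tested transcript in sub-confluent cells (vertical axis) against confluent cells (horizontal axis), with 2 libraries in each group. Nearly all orange points (called higher with the p190A shRNA at confluence) lie above 0 on the vertical axis, 891 of 906, and nearly all blue points (higher with the p190B shRNA) below it, 1041 of 1060.

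The named transcripts kept the order of p190A and p190B cells. ENSCAFT00000029232 was at 100.3 and 252 CPM in sub-confluent p190A libraries and at 3.79 and 5.25 CPM in p190B libraries, a log2 fold change of 5.29 (SE 0.51, edgeR adjusted p = 1.6e-05). Its sub-confluent double knockdown libraries, at 44.93 and 114.3 CPM, overlapped those of wild type (64.64 and 85.35 CPM) and p190A cells, unlike at confluence. ENSCAFT00000026362 was at 10.6 and 52.9 CPM against 0.371 and 0.398 CPM, with 5 reads in each p190B library. Its sub-confluent p190A libraries lay far apart, and the higher of them matched the lower sub-confluent wild-type library, at 52.9 CPM each.

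ENSCAFT00000008568 was at 1.13 and 2.24 CPM in sub-confluent p190A libraries and at 391.7 and 317.8 CPM in p190B libraries, a log2 fold change of -7.69 (SE 0.60, edgeR adjusted p = 4.0e-06). Both sub-confluent p190B libraries were above both confluent ones. ENSCAFT00000019396 was at 1.06 and 0.256 CPM against 21.8 and 19.3 CPM, a log2 fold change of -4.98 (SE 0.37, edgeR adjusted p = 2.1e-06). It was again below 1 CPM in wild-type and double knockdown libraries.

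Tested as an interaction, the difference between the single knockdowns changed with density for 0 transcripts in edgeR (0% of those tested). At unadjusted p under 0.05 there were 580 of 12845, or 4.52%. DESeq2 called 4, limma-voom 0, edgeR without the filter on low counts 89, and edgeR with a replicate block within density 3. Leaving out sub-confluent p190A replicates 1 and 2 in turn gave 16 and 2 calls, and leaving out sub-confluent p190B replicate 1 gave 1. The interaction term for ENSCAFT00000008568 was 1.84 (SE 0.93, edgeR adjusted p = 1.0), so a change of its fold difference with density was not resolved. A lack of calls does not show equal differences, since the interaction carries the spread of 4 groups of 2 libraries.

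The sub-confluent p190A libraries differed most from each other, with a median absolute log2 difference of 0.287, where the other groups of experiment 1 had 0.155 to 0.218. The 2735 sub-confluent calls became 1752 without sub-confluent p190A replicate 2, 1231 and 1478 without sub-confluent p190B replicates 1 and 2. Fitted on their own, the 4 libraries gave 872 calls. Both lists were also called anew in each refit. Without sub-confluent p190B replicates 1 and 2, 48.3% and 51.4% of the transcripts higher with the p190A shRNA at confluence were called so in sub-confluent cells too, and 51.0% and 61.4% of those higher with the p190B shRNA. Without sub-confluent p190A replicate 2 the shares were 50.3% and 47.8%. The sub-confluent call went the other way for at most 4 transcripts of a list in any of the refits run.

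Wild-type levels show on which side of the unmanipulated cells each knockdown lay. At confluence, wild type was between the single knockdowns for 622 of the 906 transcripts higher with the p190A shRNA (68.7%) and for 679 of the 1060 higher with the p190B shRNA (64.1%), against 35.3% of all tested transcripts. It was below both knockdowns for 15.6% and 18.8% and above both for 15.8% and 17.2% of the 2 lists. A wide gap between the knockdowns holds an intermediate level more often by itself, and these lists were chosen for a gap, so the counts are a description. The positions are of mean log2(CPM + 0.5) values.

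The sub-confluent levels did not enter the contrast that gave these lists. Those libraries were in the same fit, however, and helped set the spread behind the calls. Wild type lay between the knockdowns there for 62.7% and 57.5% of them, against 39.1% of all tested. The gap between the knockdowns persisted there, with median log2 fold changes of 0.66 and -0.77, where all tested transcripts had quartiles of -0.29 and 0.30. A wide gap can raise these shares too, so they and the positions below are also a description. For transcripts higher with the p190A shRNA at confluence, sub-confluent p190A cells were above wild type by a median of 0.19 on the log2 scale and p190B cells were at -0.45 relative to wild type. Wild type was closer to p190A than to p190B for 605 of the 906 (66.8%), against 56.8% of all tested. For transcripts higher with the p190B shRNA, sub-confluent p190A cells were at a median of -0.31 relative to wild type and p190B cells at 0.41. Wild type was closer to p190A for 54.9% of this list, under the share of all tested. In both lists the single knockdowns sat on opposite sides of wild type by the median, with the p190B side the longer one in sub-confluent cells. At confluence the p190B side was the longer one for the first list (0.30 for p190A and -0.36 for p190B) and the p190A side for the second (-0.41 for p190A and 0.37 for p190B).

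Double knockdown cells were compared in the same way. At confluence they lay between the single knockdowns for 471 of the 906 (52.0%) and 586 of the 1060 (55.3%), against 24.4% of all tested. For transcripts higher with the p190A shRNA they were above both single knockdowns in 32.3% and below both in 15.7%. For transcripts higher with the p190B shRNA they were below both in 32.5% and above both in 12.2%. The shares of all tested were 36.7% above and 39.0% below. As for wild type, the lists were chosen for a gap between the single knockdowns, so these counts are a description. The double knockdown line was made from the p190B line. Its level was closer to that of p190A cells for 541 of the 906 (59.7%) and 673 of the 1060 (63.5%). The share of all tested was 57.3%, near that of the first list. In sub-confluent cells these shares were 49.2% and 67.1%, against 58.2%, so the first list fell below the share of all transcripts there. For transcripts at least 2-fold apart they were 53.6% and 64.0% at confluence and 38.7% and 62.4% in sub-confluent cells.

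**Figure D4:**
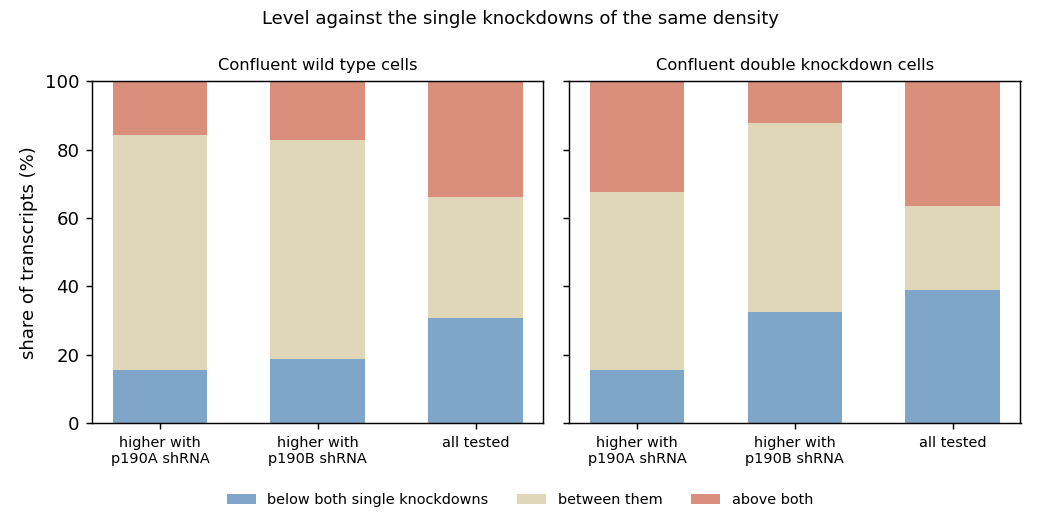
Share of transcripts (%) whose mean level in confluent wild-type cells (left) or confluent double knockdown cells (right) lay below both single knockdowns, between them or above both, for the 906 transcripts higher with the p190A shRNA, the 1060 higher with the p190B shRNA and all 12845 tested. The wild-type level was between the knockdowns for 68.7% and 64.1% of the lists, and the double knockdown level for 52.0% and 55.3%.

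The response of wild-type cells to density was then read for the same transcripts, in libraries that the comparison of the knockdowns does not hold. Confluence raised 14.3% and lowered 15% of all tested transcripts in wild-type cells. Of the 906 transcripts higher with the p190A shRNA, 364 (40.2%) were lower in confluent wild-type cells and 64 (7.06%) higher. Of the 1060 higher with the p190B shRNA, 233 (22.0%) were higher in confluent wild-type cells and 142 (13.4%) lower. The median log2 fold change with confluence was -0.29 in the first list and 0.09 in the second, against 0.01 in all tested transcripts.

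Transcripts higher with the p190A shRNA were thus, by these counts, more often among those that are lower in crowded wild-type cells. Over the 4 pairs of a confluent with a sub-confluent wild-type library, the median of the first list ran from -0.32 to -0.25 and that of the second from 0.04 to 0.12. For transcripts at least 2-fold apart the medians were -0.48 and 0.28. The called transcripts had higher levels than the rest, and their estimated spread was the same in both contrasts. More of them can pass a test for either reason, in either direction. Refits without 1 wild-type library made fewer calls, in the lists and in all transcripts. In the first list, 234 and 220 were called lower without confluent wild-type replicate 1 or 2 (25.8% and 24.3%, against 7.89% and 6.63% of all tested). Without sub-confluent replicate 2 there were 205 (22.6%, against 6.63%). In the second list, 147 and 128 were called higher without confluent replicate 1 or 2 (13.9% and 12.1%, against 7.01% and 7.12% of all tested). Without sub-confluent replicate 1 or 2 there were 149 and 110 (14.1% and 10.4%, against 7.7% and 4.38%). Of the named transcripts, ENSCAFT00000026362 was called in this contrast, with a log2 fold change of -1.79 (SE 0.48, edgeR adjusted p = 0.015).

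Finally, the lists were read in experiment 2, between confluent double knockdown and wild-type cells. In all, 35.2% of transcripts tested there were called higher and 35.1% lower in the double knockdown. Of 899 transcripts higher with the p190A shRNA and tested in experiment 2, 443 (49.3%) were higher in the double knockdown and 316 (35.2%) lower, with a median log2 fold change of 0.12. Of 1036 higher with the p190B shRNA, 314 (30.3%) rose and 524 (50.6%) fell, and the median was -0.18. For all tested transcripts the median was 0.01. Where the single knockdowns differed, the double knockdown of experiment 2 thus deviated from wild type slightly more often to the side of the p190A shRNA.

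For the large differences this held for the list higher with the p190B shRNA and not for the other. Of transcripts at least 2-fold higher with the p190A shRNA, the double knockdown of experiment 2 was higher for 77 of 242 (31.8%) and lower for 120 (49.6%). The median was -0.19. Of those at least 2-fold higher with the p190B shRNA, it was higher for 116 of 393 (29.5%) and lower for 203 (51.7%). The median was -0.34. Of all transcripts tested there, 35.2% were higher and 35.1% lower. Both lists of large differences were thus more often lower than all tested, with shares called higher slightly under that of all tested.

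**Figure D5:**
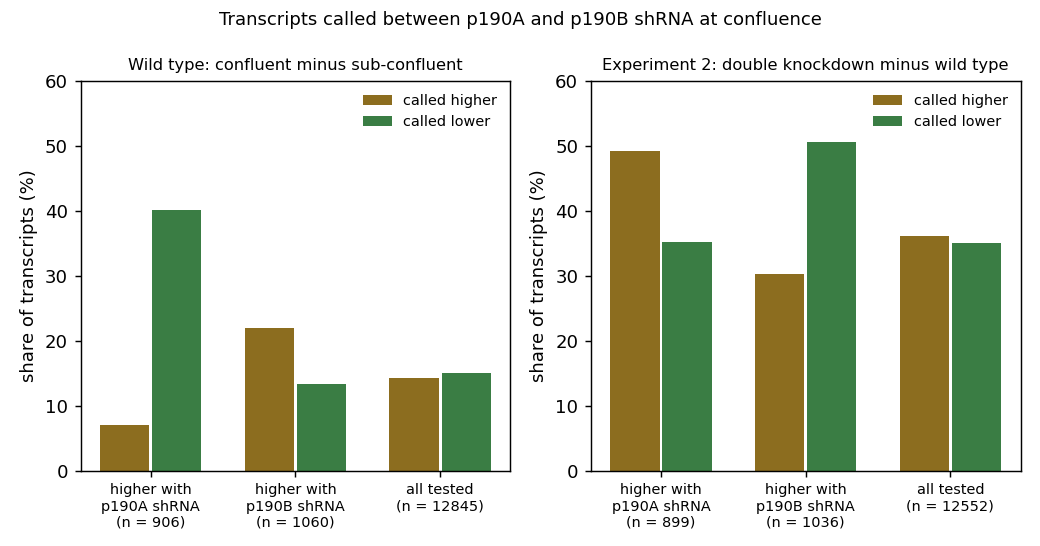
Share of transcripts (%) called higher or lower between confluent and sub-confluent wild-type cells (left) and between double knockdown and wild-type cells of experiment 2 (right), for transcripts higher with the p190A shRNA, those higher with the p190B shRNA and all tested. In wild-type cells 40.2% of the first list were lower at confluence, against 15% of all tested transcripts.

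In experiment 2, the named transcripts other than ENSCAFT00000019396 did not repeat the wild-type levels of experiment 1. ENSCAFT00000019396 was near the detection limit in wild-type cells of both experiments. ENSCAFT00000008568 was at 83.1, 86.4 and 83.5 CPM in wild type and at 83.9, 79.8 and 78.0 CPM in the double knockdown, groups that overlapped (log2 fold change -0.06, SE 0.04, edgeR adjusted p = 0.17). ENSCAFT00000029232 was at 11.9, 12.04 and 12.4 CPM in wild type, below both wild-type libraries of experiment 1, and at 9.14, 6.19 and 6.52 CPM in the double knockdown (log2 fold change -0.72, SE 0.11, edgeR adjusted p = 7.7e-08). ENSCAFT00000026362 was at 33.3, 32.9 and 36.1 CPM in wild type and 26.8, 22.4 and 21.1 CPM in the double knockdown (log2 fold change -0.53, SE 0.07, edgeR adjusted p = 1.7e-09). ENSCAFT00000019396 was listed at 0 in each of the 3 wild-type libraries and at 4 or 5 reads in each double knockdown library, too few to enter the test. Levels were normalized within each experiment, so a difference in level between the experiments is given without a test.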

How the data were processed

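For each sample the authors deposited raw read counts, whole numbers that were not normalized, for 29884 Ensembl dog transcripts, followed by 5 summary rows. Per the submitters' processing notes the tools included STAR 2.3.1n, HTSeq 0.6.0 and DESeq2 1.4.5 with the build CanFam3.1, in unstated roles. No source used here gives the strand setting. Reads that fell on overlapping transcripts are in a summary row (20.3% to 23.1% of reads aligned to 1 place), so overlapping transcripts are counted in part. Reads outside any transcript made up 21.2% to 23.8%, and alignments to several places 24.4% to 30.7% of all entries. Summary rows were left out.

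Counts were tested with edgeR 4.0.16 in R 4.3.3 (filterByExpr, TMM, robust quasi-likelihood F-test, Benjamini-Hochberg over all tested transcripts, with calls at adjusted p under 0.05). All 16 libraries of experiment 1 were fitted together as 8 group means, so that groups of 2 shared the spread, and so were the 11 distinct libraries of experiment 2 (13061 transcripts), where 2 identical files counted once. CPM used TMM-scaled library sizes, and the SE of a fold change came from the F statistic. The fit was tested on simulated counts, with changes placed in transcripts above 2 CPM. It called 71 of 100 transcripts changed 2-fold and 95 of 100 changed 4-fold, so some 2-fold changes were missed there. Of 12541 unchanged transcripts it called 7. Far fewer transcripts were changed there than were called in the data, and replicates were drawn independently. These shares need not hold for the data. Named transcripts passed the test, did not overlap between groups and reached an edgeR average log2 CPM of 3 over the 16 libraries of experiment 1. A transcript can reach that average through the groups where it is high. The first 2 by fold change in each direction were taken. Gene and marker lists were not run, since no identifier could be paired with a symbol. The comparison and lists were chosen with earlier results of these data known.

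Within a density, libraries with the same replicate number deviated from their group means in a correlated way (r over transcripts from 0.198 to 0.508 among confluent groups and from 0.129 to 0.343 among sub-confluent ones). That correlation, not a label, is the source of the pairing, and the replicate number was also fitted as a block within density. Other alternatives were RLE size factors, no filter, DESeq2 1.42.0, limma-voom (limma 3.58.1), fewer groups in the fit and leaving out each library. Leaving out both sub-confluent p190A libraries, the same alternatives for the 2-fold count, and the wild-type response without single wild-type libraries were added after seeing the data.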

Additional observations from a re-analysis of the deposited data

Results flagged for a closer look

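Signals of 3 named transcripts lay in confluent libraries of experiment 2 that no comparison above uses, each at least 2-fold above the highest wild-type library of that experiment. ENSCAFT00000008568 was at 522.9 and 504.0 CPM in the 2 distinct libraries labelled YAP5SA, against at most 86.4 CPM in wild type. ENSCAFT00000029232 was at 29.9 and 31.9 CPM in the libraries labelled YAP5SA, against at most 12.4 CPM. ENSCAFT00000026362 was at 74.2 CPM or more in double knockdown cells with YAP5SA+S94A, against at most 36.1 CPM. The other transcripts were also above wild type in those YAP5SA+S94A cells. There ENSCAFT00000008568 was at 155.4 to 170.3 CPM and ENSCAFT00000029232 at 21.9 to 25.2 CPM. ENSCAFT00000026362 was at 30.6 and 31.6 CPM in the libraries labelled YAP5SA, below wild type. YAP5SA is an active form of YAP1, and S94A removes its binding to TEAD factors. The labels disagree on whether the YAP5SA libraries also carried the shRNAs.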

How the results depend on the processing

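The count of transcripts called between p190A and p190B shRNA at confluence was 1966 and was between 1876 and 2947 under the alternatives that left out no single library, the highest with a replicate block within density (1384 higher with the p190A shRNA, 1563 higher with the p190B shRNA). Leaving out single libraries gave 951 to 2438 calls, and 459 to 707 for the 665 transcripts at least 2-fold apart, which moved by less than 1.5 times under every alternative run. The 2735 sub-confluent calls became 872 when those 4 libraries were fitted alone, 3924 under the replicate block within density, and 1231 to 3275 without single libraries. The 0 interaction calls became 89 with no low-count filter, 3 under the replicate block within density, 4 in DESeq2, and 0 to 16 without single libraries. The cause of these moves was not tested, apart from the loss of a library in the comparison itself. The median in sub-confluent cells of transcripts higher with the p190A shRNA (0.66) was 1.23 for those at least 2-fold apart and 0.56 with the block, and for those higher with the p190B shRNA (-0.77) it was -1.42 and -0.64. The wild-type confluence median of the first list (-0.29) was -0.48 at 2-fold and -0.25 with the block, and that of the second (0.09) was 0.28 at 2-fold. In experiment 2 the median of the first list (0.12) was -0.19 at 2-fold, a reversed sign, and that of the second (-0.18) was -0.34 at 2-fold, -0.17 with DESeq2 and -0.15 for the list called with the block. Calls of the other 3 named transcripts held in all 25 alternatives, and that of ENSCAFT00000026362 in 23. Transcripts below 1 CPM rest on few reads in 2 libraries a group, and how far this limits their calls was not tested.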
